A study of Mus musculus with 2 samples.

Results

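Foxp3-positive regulatory T cells were picked out of the immune cells of mouse gingiva, and the members were chosen by measured values, those of the transcripts in the rule below. A cell was counted as one when it carried at least 1 UMI (unique molecular identifier, which stands for 1 captured RNA molecule) of Foxp3 and at least 2 UMIs of the CD3 genes Cd3e, Cd3d and Cd3g together. It also had to be free of the marks of 3 other lineages: under 3% of its UMIs from the neutrophil genes S100a8 and S100a9, at most 2 UMIs of the macrophage genes C1qa, C1qb and C1qc, and no UMI of the B cell gene Cd79a. Of 21208 cells that passed the filter on cell quality (no fewer than 500 UMIs and 200 genes, and no more than 15% of UMIs from mitochondrial genes), 204 met these conditions, 169 of them in the normoglycemic and 35 in the diabetic library.

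Regulatory T cells are CD4 T cells that restrain other lymphocytes. Their identity is held by the forkhead transcription factor FOXP3, and they act through the inhibitory receptor CTLA-4, through consumption of interleukin 2 by a high-affinity receptor, and through cytokines such as interleukin 10 and activated TGF-beta. In barrier tissues a part of them carries ST2, the interleukin 33 receptor encoded by Il1rl1, together with GATA3 and KLRG1, and is linked to tissue repair. In the gingiva, which faces the dental biofilm, they are known for limiting the T cell responses that accompany periodontal bone loss.

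The study compared normoglycemic mice with mice made diabetic with streptozotocin, a toxin of the insulin-producing beta cells. Both groups had 2 weeks of inflammation induced with bacteria, then 2 weeks of waiting. All mice were of the genotype CD11CCre-/-;FoxoLL on a mixed C57B6 - FVB background and served as the wild type: exon 2 of Foxo1 lay between loxP sites but no Cre was present, so that the Foxo1 protein was normal per the series' design text. Gingival cells were sorted as CD45+ and free of DAPI, CD31 and Ter-119, with 20% enrichment of CD11c+CD45+ cells, and were run on the Chromium 3' v3 platform. Each group was 1 library pooled from 4 mice, with no replicates. There is therefore no test between groups, and the 95% intervals given here cover counting error only, neither the spread between mice nor that between libraries. Cells added by the CD11c enrichment enter the denominator of every share of all cells.

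The libraries held 89339733 UMIs in 11280 barcodes (normoglycemic) and 78220582 UMIs in 10496 barcodes (diabetic), and 10948 and 10260 cells passed the filter. Depth was alike in the regulatory T cells themselves: their medians were 4486 UMIs and 1763 genes in the normoglycemic library, and 4328 UMIs and 1643 genes in the diabetic library. Single cells ranged from 943 to 30934 and from 1946 to 24987 UMIs, and mitochondrial genes gave medians of 2.64% and 2.46%. The summed depth was unequal, with 985319 UMIs over the 169 cells against 204457 over the 35, so that the diabetic values carry the wider intervals. The libraries shared 32 barcodes, none of them in a regulatory T cell. Both sexes were present in both pools: among cells with either Xist or Y-linked transcripts, 30% of normoglycemic and 23.8% of diabetic regulatory T cells were scored as female, against 44.5% and 66.1% of T cells without Foxp3. Gene levels were also compared within the cells scored as male, 77 and 16 regulatory T cells; the 5 diabetic cells scored as female were too few.

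One feature set the diabetic regulatory T cells apart before any gene was compared. The matrices also hold 4 antibody features, named C1 to C4 and not explained by the labels, and 9 of the 35 diabetic regulatory T cells (25.7%, 95% interval 12.5 to 43.3) had 100 or more of their counts, against 1 of 169 normoglycemic ones (0.592%, 0.0150 to 3.25). The cells fell into 2 separate ranges: the highest cell below 100 had 54 counts in the diabetic and 62 in the normoglycemic library, and the lowest above had 610 and 1519. In the 9 diabetic cells C1 led in 4, C2 in 2 and C3 in 3. T cells without Foxp3 also had a higher share in the diabetic library, 7.71% (5.33 to 10.7) against 1.39% (0.697 to 2.48). Of B cells 6.48% in the normoglycemic and 3.01% in the diabetic library had 100 or more, and of all cells 3.46% and 2.13%. Values without these cells are therefore given for part of the results that rest on diabetic cells, in settings that were added after the data had been seen.

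The markers bore out the label. At least 2 of Il2ra (the high-affinity interleukin 2 receptor chain), Ctla4 and Ikzf2 (the Ikaros-family factor Helios) were detected in 158 of 169 normoglycemic cells (93.5%) and 33 of 35 diabetic cells (94.3%). Among T cells of the same gate without a Foxp3 UMI, named Foxp3-negative T cells here, the shares were 37.3% of 790 and 30.6% of 415. Foxp3 UMIs were rare in cells that should lack them: 1 of 293 normoglycemic B cells (0.341%) and 0 of 166 diabetic B cells, which allows a share of up to 1.81%, had a UMI, at median depths of 4602 and 4520 UMIs. Of the neutrophil-gated cells, 0.259% and 0.0214% had one.

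Foxp3 itself was sparse, which bears on the threshold. One UMI was all that 52 normoglycemic and 14 diabetic cells had; 37 and 6 had 2, 28 and 8 had 3, and 52 and 7 had 4 or more, up to 15 and 8. The cells just inside the threshold lay near the rest for Ctla4 and Ikzf2, and between the rest and the Foxp3-negative T cells for Il2ra. In the normoglycemic library Ctla4 was detected in 82.7% of the cells with exactly 1 Foxp3 UMI, in 98.3% of those with more and in 26.3% of the Foxp3-negative T cells. In the diabetic library these shares were 100%, 100% and 16.9%. For Ikzf2 they were 90.4%, 92.3% and 38.6%, and 78.6%, 90.5% and 32.5%. For Il2ra they were 61.5%, 87.2% and 52.2%, and 57.1%, 76.2% and 47.0%. Tnfrsf4 was in 65.4%, 93.2% and 17.7% of the normoglycemic cells. Outside the CD3 threshold lay 4 normoglycemic cells with Foxp3 and exactly 1 CD3 UMI, each with Ctla4. A further 8 with no CD3 UMI had no Ctla4, and each carried the myeloid gene Lyz2. Summed over cells, Foxp3 stood at 519 and 430 CPM (a gene's UMIs over all UMIs of the summed cells, times 1000000), a level that the choice of cells bears on.

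Regulatory T cells were scarcer in the diabetic library under each denominator used. They made up 1.54% of all cells (95% interval 1.32 to 1.79) in the normoglycemic library and 0.341% (0.238 to 0.474) in the diabetic library, a difference of -1.20 percentage points (-1.47 to -0.950). T cells as a whole were also fewer, at 8.76% against 4.39% of cells. Within T cells, regulatory T cells were 17.6% (15.3 to 20.2) of 959 and 7.78% (5.48 to 10.7) of 450 cells, a difference of -9.84 points (-13.2 to -6.20). Foxp3-negative T cells were 7.22% and 4.04% of all cells. Of T cells scored as male, 77 were regulatory T and 308 Foxp3-negative in the normoglycemic library, against 16 and 97 in the diabetic library. Of those scored as female, the numbers were 33 and 247, against 5 and 189. Shares were not compared within cells of 1 sex, and the part of sex in these differences was not tested.

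The T cells of the gate included gamma-delta cells, so the share was also taken with narrower denominators. Among T cells with a UMI of Trac (the alpha chain constant region) and none of Trdc (the delta chain), regulatory T cells were 25.9% against 13%, a difference of -13 points (-18.2 to -6.83). Among T cells with a Cd4 UMI and no Cd8a UMI they were 35% of 274 against 19% of 84, a difference of -16.0 points (-25.1 to -4.90). Without the cells of 100 or more antibody counts the share of T cells was 17.7% against 6.36%. Thinning each cell to 1000 UMIs before gating kept the order and lowered both shares, to 7.21% and 2.53% of T cells.

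**Figure D1:**
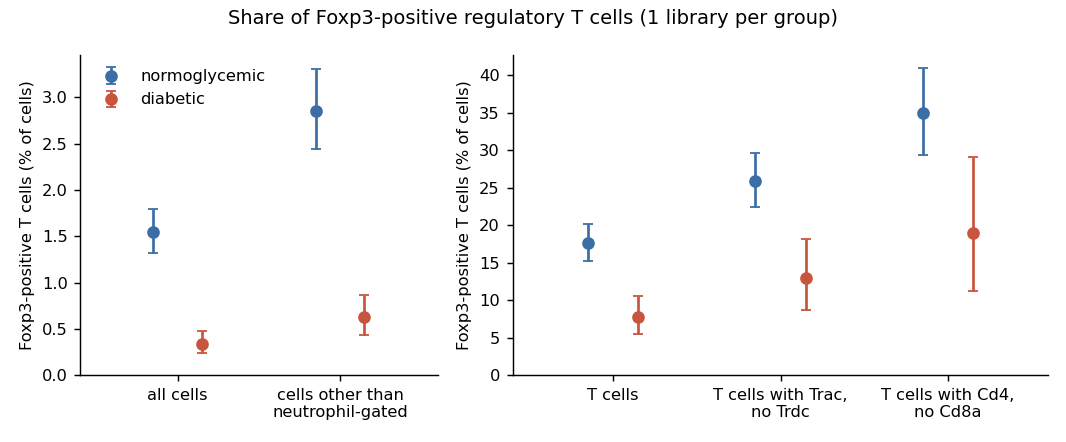
Share of Foxp3-positive regulatory T cells (vertical axes, percent of the cells named on the horizontal axis) in the normoglycemic (blue) and diabetic (red) library, 1 library each. Points are shares and bars exact 95% binomial intervals; the intervals of the libraries do not overlap for any of the 5 denominators, from 1.54% against 0.341% of all cells to 35% against 19% of T cells with Cd4 and no Cd8a.

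Against the Foxp3-negative T cells of the same library, regulatory T cells had a transcript profile that both libraries shared. UMIs were summed over cells, scaled to CPM, and a gene was counted as higher or lower when it was past 1.5-fold the same way in both libraries, with 0.5 UMIs added to each sum. Of 7295 genes measured (at least 10 CPM in either population and 10 UMIs in all), 723 (9.91%) were higher and 458 (6.28%) lower; with TMM scaling, which is less swayed by a few high genes, 431 were higher and 642 lower. TMM moved the log2 ratios by -0.14 in the normoglycemic and -0.31 in the diabetic library, and the folds below are of a size that neither shift turns.

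The genes named by rank held 3 receptors of the TNF family and Ctla4. Ranked first, Tnfrsf4 (OX40, a costimulatory receptor) stood at 1525 and 1555 CPM in normoglycemic and diabetic regulatory T cells and at 114 and 73.2 CPM in Foxp3-negative T cells, 13.4-fold and 21.3-fold higher. Tnfrsf18 (GITR) was 6.15-fold and 6.83-fold higher, and Tnfrsf9 (4-1BB) 5.67-fold and 7.08-fold. Ctla4, at 1508 and 1521 CPM, was 8.71-fold and 12-fold higher. Levels of these 4 receptors lay far from those of the Foxp3-negative cells in both libraries.

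Among the factors that hold the lineage, Ikzf2 stood at 2194 and 1100 CPM, 9.67-fold and 7.68-fold above the Foxp3-negative cells, and Ikzf4 (Eos, a partner of FOXP3 in gene repression) at 219 and 108 CPM, 16.9-fold and 9.43-fold above. For suppression, Il10 stood at 109 and 152 CPM against 7.58 and 9.44 CPM, and Itgb8, the integrin chain that activates latent TGF-beta, at 153 and 157 CPM against 9.61 and 9.84 CPM. Il10 was 14.3-fold and 16.1-fold higher, and Itgb8 15.9-fold in each library. Lrrc32, which encodes the TGF-beta docking receptor GARP, was low in regulatory T cells (17.3 and 34.2 CPM) and had 0 UMIs in the diabetic Foxp3-negative cells. Penk, the precursor of the enkephalins, was 10.3-fold and 18.6-fold higher, and Tff1, a trefoil peptide known from mucosa, 13.1-fold and 30.4-fold. Neb (nebulin, a muscle protein), Arl5a, Zc3h12d, Pcsk1 (a prohormone convertase) and Klrg1 completed the genes named by rank.

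Genes that were lower belonged to the effector cells of the gate. Ifng was at 4.06 and 0 CPM against 64.2 and 87.4 CPM in Foxp3-negative T cells, and Gzma, a cytotoxic granzyme, at 3.04 and 0 CPM against 88.9 and 170 CPM. The gamma-delta genes Trdc, Cd163l1, Tcrg-C1 and Trgv2, the interleukin 17 genes Il17a and Il17f, the chemokine genes Xcl1 and Ccl5, and Ly6c2 and Tmem176a were also among the 15 lowest. Tcf7, a factor of resting and memory T cells, stood at 9.13 and 4.89 CPM against 155 and 143 CPM. The mast cell protease genes Cma1 and Mcpt4 in the same list came from few Foxp3-negative cells: Cma1 was detected in 0.886% and 1.69% of them.

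**Figure D2:**
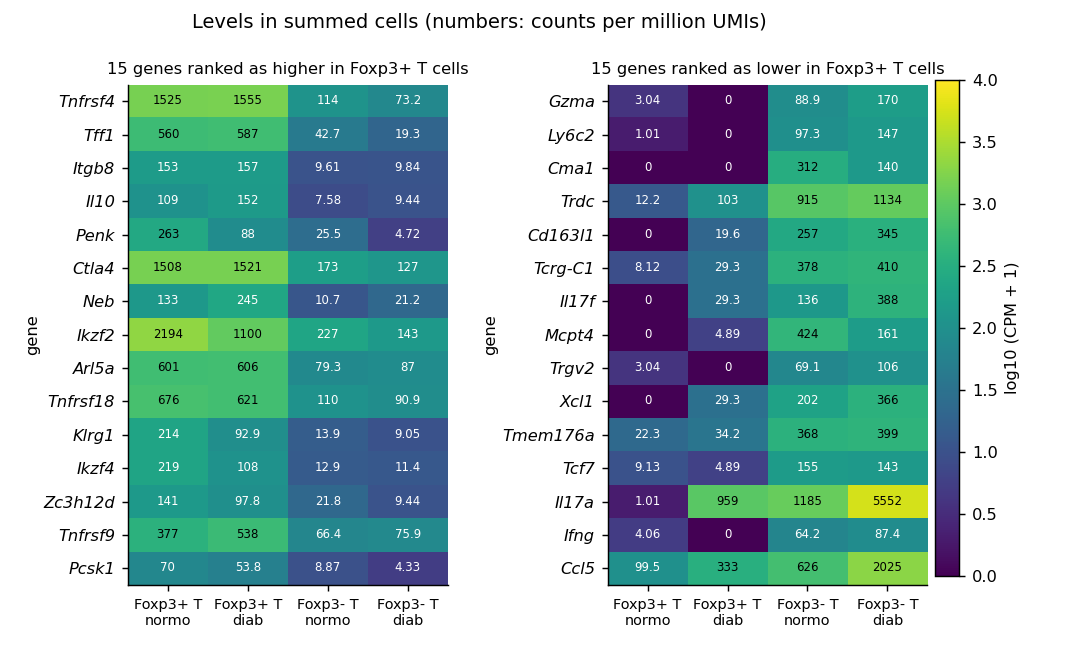
Levels (numbers and colour, CPM; colour on a log10 scale of CPM + 1) of the 15 genes ranked highest and the 15 ranked lowest in Foxp3-positive T cells, in the summed Foxp3-positive (Foxp3+) and Foxp3-negative (Foxp3-) T cells of the normoglycemic (normo) and diabetic (diab) libraries. Tnfrsf4, for example, stands at 1525 and 1555 CPM in the Foxp3-positive cells and at 114 and 73.2 CPM in the others.

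Whole gene lists followed the same lines, set against all-gene medians of 0.14 (normoglycemic) and 0.25 (diabetic) on the log2 scale with 0.5 UMIs added. Of all 7295 genes, 9.91% were higher and 6.28% lower in both libraries, the background for the counts in this and the next paragraph. Of the 19 measured genes of the regulatory T cell core, 10 were higher and 2 lower in both libraries (medians 1.42 and 1.23). The genes that were lower were Rgs1 and Cst7. Costimulation and TNF receptor genes were higher in 12 of 21 and lower in 1, the inhibitory receptor gene Pdcd1 (162 and 166 CPM against 256 and 295 CPM). Tissue repair genes were higher in 12 of 19 (medians 0.86 and 1.30) and suppressive mediators in 7 of 14. Chemokine receptor and homing genes were higher in 8 of 22, among them Gpr15, Ccr4 and Ccr8. Cell cycle genes were higher in 8 of 18 and none was lower. In the diabetic library this list leans on single regulatory T cells. A single cell held 82.8% of the Mki67 UMIs, and for Top2a, Stmn1, Hmgb2 and Tubb5 the shares were 78.9%, 84.4%, 48.5% and 39.0%. The list count was not taken without such cells.

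Lists of other T cell programmes varied. Type 17 genes were lower in 9 of 13 (medians -3.61 and -1.91), and the 3 that were higher, Maf, Ccr6 and Ahr, are also known in regulatory T cells. Type 1 genes were lower in 5 of 12 and higher in 2, whereas of 6 type 2 genes 3 were higher and 1 was lower. Resting T cell genes were lower in 6 of 13, and early genes induced by the T cell receptor in 6 of 23. Heat shock and dissociation stress genes were lower in 7 of 20 and higher in none. Areg, which encodes the repair factor amphiregulin, is usually listed for tissue regulatory T cells, but here stood at 312 and 333 CPM against 817 and 1945 CPM in Foxp3-negative T cells.

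Most regulatory T cells formed 1 transcriptional group. When the 959 and 450 T-gated cells were clustered together without the genes used for gating, 163 of the 204 (79.9%) fell into 1 of 16 clusters, 135 of them normoglycemic and 28 diabetic. That cluster also held 58 cells with no Foxp3 UMI, of which 84.5% had Ctla4, 94.8% Ikzf2 and 37.9% Il1rl1, against 20.0%, 33.6% and 4.53% of the 1147 Foxp3-negative cells elsewhere. These 58 cells are not counted among the 204. A cluster led by interferon-induced genes such as Ifit3 and Rsad2 held 14 normoglycemic and 1 diabetic regulatory T cells, and one led by mitotic genes such as Ube2c and Ccna2 held 7 and 1. At a finer clustering (resolution 2.0) the leading cluster held 45.6%.

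Among the normoglycemic regulatory T cells, many carried the ST2 programme. Il1rl1 was detected in 81 of 169 cells, and 53 of these also had Klrg1, an inhibitory receptor for cadherins. Of the 88 cells without Il1rl1, 23 had Klrg1. Gata3, the factor that drives type 2 genes and binds with FOXP3, was detected in 66 of the 81 and 48 of the 88. The 81 and the 88 cells had similar depth, with medians of 4586 and 4397.5 UMIs.

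Summed over cells, those with Il1rl1 had Klrg1 at 366 CPM against 75.7 CPM (4.83-fold, 3.39 to 7.02), Il2ra at 1054 against 418 CPM (2.53-fold, 2.15 to 2.98) and Gzmb at 527 against 194 CPM (2.71-fold, 2.14 to 3.46). Of 7416 genes measured, 15% were at least 1.5-fold higher and 16.3% at least 1.5-fold lower in the cells with Il1rl1. Pcsk1 was at 117 against 27.2 CPM. Ranked above these by interval were the interferon-induced genes Iigp1 (115 against 5.83 CPM), Rsad2, Ifit3 and Ifit1; single cells held 81.5%, 55% and 59.1% of the normoglycemic UMIs of Ifit3, Rsad2 and Ifit1. Areg, at 372 against 256 CPM, was 1.45-fold higher (1.15 to 1.83). Lower in the cells with Il1rl1 were H2-Aa (61.6 against 1387 CPM) and other MHC class II genes, and Cst3 (249 against 2843 CPM), which dendritic cells carry at high level; the part of cells with dendritic cell genes in this result was not tested.

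Other subset marks were detected in few cells at this depth. Cxcr5, the mark of follicular regulatory T cells, had a UMI in 1 of 169 normoglycemic and 0 of 35 diabetic cells, the latter allowing a share of cells with a UMI of up to 8.57%. Tbx21, the type 1 factor, had one in 6 normoglycemic cells and in no diabetic cell. Such shares limit detection, not expression. After thinning to 1000 UMIs per cell, Maf was found in 58.9% and 60% of cells and Icos in 72.6% and 62.9%.

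Between the libraries, regulatory T cells differed in the ST2 programme. Il1rl1 stood at 374 CPM in normoglycemic cells against 127 CPM in diabetic ones, a ratio of 0.340 (0.219 to 0.506), and was detected in 81 of 169 cells (47.9%) against 6 of 35 (17.1%). Gata3 stood at 383 against 147 CPM (ratio 0.383, 0.255 to 0.557) and Klrg1 at 214 against 92.9 CPM (0.434, 0.256 to 0.695). The 3 genes that mark this subset were thus lower together. As background, 20% of 7712 genes measured were at least 1.5-fold higher and 20.8% at least 1.5-fold lower in diabetic regulatory T cells, so that passing 1.5-fold says little of a single gene, and weight lies on the intervals.

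Depth and the choice of cells moved these ratios without turning them. Over 11 other settings the log2 ratio of Il1rl1 ran from -2.07 to -0.61, that of Gata3 from -1.76 to -1.09 and that of Klrg1 from -1.59 to -0.86. Without the cells of 100 or more antibody counts the log2 ratios were -1.92, -1.29 and -0.86. Within cells scored as male, Il1rl1 stood at 264 against 169 CPM, a ratio of 0.642 whose interval, 0.369 to 1.05, included 1. Gata3 and Klrg1 had ratios of 0.422 (0.219 to 0.744) and 0.337 (0.142 to 0.687) there. With each cell thinned to 1000 UMIs, Il1rl1 was found in 26.2% against 14.3% of cells, a difference of -11.9 points whose interval, -22.6 to 4.36, included 0. For Gata3 the thinned difference was -14.8 points (-24.7 to 0.976) and for Klrg1 -13.9 points (-21.8 to 0.0111). Thinned to 2000 UMIs, the difference was -21.2 points (-31.7 to -4.58) for Il1rl1 but -1.82 points (-15.3 to 16.0) for Klrg1. B cells with a UMI of these genes were at most 1.04% in either library.

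Foxp3-negative T cells had lower Il1rl1 in the diabetic library too, at 64.7 against 27.2 CPM (0.420), and lower Gata3, at 109 against 68.1 CPM (0.626). The difference between the 2 cell types was not tested. Over all 7644 genes measured in Foxp3-negative T cells, 5.81% were at least 1.5-fold higher and 7.54% lower, fewer than in the regulatory T cells, whose diabetic sum rests on 35 cells.

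A promoter of Il1rl1 is shown because that gene marks the subset. RefSeq lists 2 starts for the gene, and only the most upstream one was used. The 250 bases before that start lie at chr1:40429320-40429569 (GRCm38.p6, plus strand) and hold 1 match to the GATA motif AGATAA, printed in capitals.
Il1rl1: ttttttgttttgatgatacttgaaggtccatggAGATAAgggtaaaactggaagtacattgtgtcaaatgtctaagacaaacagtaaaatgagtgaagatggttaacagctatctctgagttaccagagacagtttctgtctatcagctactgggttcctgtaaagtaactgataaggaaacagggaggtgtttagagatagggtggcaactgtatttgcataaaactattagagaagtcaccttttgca
The letters AGATAA, on either strand, occur in 10.2% of the 27025 promoters of the same length in the RefSeq table. The match is a description of the sequence only. No match to the forkhead motif GTAAACA, which 3.06% of promoters hold, was found in this window.

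Tissue repair genes as a list were lower in the diabetic cells: of 19 measured members, 9 were lower by 1.5-fold or more and 1 was higher, with a median log2 ratio of -0.41 against 0.03 over all genes. Of all genes 20.8% were lower and 20% higher by this measure. Besides the ST2 group, Penk stood at 263 against 88.0 CPM (0.335, 0.195 to 0.540; 0.892, 0.498 to 1.51, within cells scored as male), Cd44, the hyaluronan receptor, at 767 against 426 CPM (0.555, 0.439 to 0.693) and Nfil3 at 130 against 63.6 CPM (0.489, 0.254 to 0.867). Hif1a, the factor of the oxygen response, was the member that was higher, at 416 against 651 CPM (1.56, 1.28 to 1.91). Areg was alike in both libraries, at 312 and 333 CPM (1.07, 0.808 to 1.39), while in Foxp3-negative T cells it stood at 817 and 1945 CPM. The same list in Foxp3-negative T cells had a median of -0.55.

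Lineage and receptor genes divided. Ctla4 (1508 and 1521 CPM, ratio 1.01, 0.890 to 1.14), Tnfrsf4 (1525 and 1555 CPM, ratio 1.02, 0.901 to 1.15) and Tnfrsf18 (676 and 621 CPM) had ratios whose intervals held 1, that of Tnfrsf18 running from 0.754 to 1.11. Ikzf2 was at 2194 against 1100 CPM (0.502, 0.435 to 0.576) and Ikzf4 at 219 against 108 CPM (0.491, 0.301 to 0.762). In Foxp3-negative T cells Ikzf2 was at 227 against 143 CPM. The core list as a whole had 3 of 20 members higher and 3 lower, with a median of 0.05. Over all genes 20% were higher and 20.8% lower.

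Of the 21 genes of the costimulation and TNF receptor list, 5 were lower and 1 higher, near the background. Icos, a costimulatory receptor, stood at 1655 against 1100 CPM (0.665, 0.576 to 0.765), Cd28 at 422 against 245 CPM (0.579, 0.423 to 0.778), Cd27 at 214 against 112 CPM (0.525, 0.326 to 0.810) and Tnfrsf1b, the TNF receptor that sustains regulatory T cells, at 504 against 269 CPM (0.533, 0.396 to 0.706). In Foxp3-negative T cells Icos and Cd28 had ratios of 0.530 and 0.549. Tnfrsf9 stood at 377 against 538 CPM (1.43, 1.14 to 1.77), or 1.12 (0.855 to 1.44) without the top cell of each library. Il2ra stood at 722 against 577 CPM (0.800, 0.653 to 0.973), and Il7r at 1135 against 1144 CPM. Among the TGF-beta genes, Itgav, the partner chain of Itgb8, was lower at 437 against 176 CPM (0.403, 0.278 to 0.566), whereas Itgb8 itself was alike at 153 and 157 CPM.

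Gm28112 had one of the lowest ratios, 141 against 19.6 CPM (0.139, 0.0373 to 0.363), but is uncertain as a gene of its own. It is annotated as sense-intronic RNA at chr1:69660187-69662061 (GENCODE vM21), inside Ikzf2 on the same strand, so its UMIs may be of either. Gata3 overlaps 9230102O04Rik in the same annotation. Of the other genes that met the rule for naming, Gdpd3 (254 against 53.8 CPM), Crebl2 (70.0 against 9.78 CPM), Zbtb20 (112 against 24.5 CPM), Ppp1r10 (118 against 29.3 CPM), Cd83 (363 against 142 CPM) and Dennd4a (824 against 362 CPM) were lower.

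Gzmb was higher in the diabetic cells by level and by share of cells. It encodes granzyme B, a protease that regulatory T cells can use against effector cells, and stood at 353 CPM in normoglycemic against 1032 CPM in diabetic cells (2.92, 2.45 to 3.48). It was detected in 55 of 169 cells (32.5%) and 18 of 35 (51.4%). After thinning to 1000 UMIs the shares were 13.7% and 37.1%, a difference of 23.5 points (8.24 to 40.5). No B cell had a UMI of it in the thinned counts. Leaving out the top cell of each library left the ratio at 2.92, and 11 other settings gave log2 ratios from 1.36 to 2.01, with 1.80 where the cells of 100 or more antibody counts were left out. In Foxp3-negative T cells it stood at 105 and 179 CPM (a ratio of 1.71).

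The promoter of Gzmb is printed as the counterpart of Il1rl1. Its 250 bases before the RefSeq start lie at chr14:56262335-56262584 (GRCm38.p6, minus strand, written 5′ to 3′ along the gene) and hold 2 matches to the RUNX motif TGTGGT, in capitals.
Gzmb: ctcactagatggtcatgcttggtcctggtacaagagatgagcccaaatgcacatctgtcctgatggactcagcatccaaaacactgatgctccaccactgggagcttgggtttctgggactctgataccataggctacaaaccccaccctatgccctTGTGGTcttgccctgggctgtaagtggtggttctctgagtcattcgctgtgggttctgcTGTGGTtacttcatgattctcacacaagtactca
The letters TGTGGT occur on either strand in 14.2% of the 27025 promoters. The Il1rl1 window has no match to it, and the Gzmb window none to AGATAA or GTAAACA.

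Izumo1r and Irs2 were also higher both in level and in share of cells. Izumo1r (folate receptor 4, a mark of regulatory T cells) stood at 43.6 against 108 CPM (2.47, 1.40 to 4.21) and was detected in 14.2% against 45.7% of cells. Irs2, the insulin receptor substrate whose transcription FOXO factors drive, stood at 73.1 against 225 CPM (3.08, 2.08 to 4.52), in 22.5% against 45.7% of cells. The shares of both genes are of cells as counted, without thinning to equal depth. In Foxp3-negative T cells Irs2 stood at 252 and 236 CPM. Foxo1 itself, whose alleles carry loxP sites in every mouse, stood at 112 and 103 CPM (0.920, 0.548 to 1.48). Ddit4, an inhibitor of mTOR signalling, stood at 222 against 347 CPM (1.56, 1.18 to 2.05), or at 1.27 (0.910 to 1.73) without the top cell of each library. The FOXO and insulin list had 5 of 23 measured members higher and 5 lower, near the 20% and 20.8% of all genes.

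Glycolysis genes mostly had ratios above 1 that did not pass 1.5-fold. Pkm stood at 429 against 631 CPM (1.47, 1.20 to 1.79), Ldha at 516 against 685 CPM (1.33, 1.09 to 1.60), Eno1 at 240 against 357 CPM (1.49, 1.13 to 1.95) and Aldoa at 453 against 597 CPM (1.32, 1.07 to 1.61). The list's median log2 ratio was 0.39 in regulatory T cells and -0.17 in Foxp3-negative T cells, and in regulatory T cells from -0.03, within cells scored as male, to 0.55 over 10 other settings. Without the top cell of each library the intervals of Ldha (0.956 to 1.46) and Eno1 (0.965 to 1.77) included 1. Of the 16 members, 2 passed 1.5-fold upward and 1 downward, shares below the background of 20% and 20.8%.

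Several genes ranked as higher came from 1 or 2 diabetic cells. Il17a went from 1 UMI to 196 UMIs, all in 2 cells, and Trdv4 from 0 to 20 UMIs, at least 32.1-fold higher against a floor of 3 UMIs, in the same number of cells with 19 in 1 of them. Trdc (12.2 against 103 CPM) was in 2 diabetic cells as well. Plac8 had its 53 diabetic UMIs in 1 cell. Single cells gave 95.6% of the diabetic UMIs of Ccl5, 93.3% of Olfm1, 90.1% of Ifitm3, 85.3% of Hspa1a and 80.4% of Ckb. Without the top cell of each library the log2 ratio of Ccl5 was -1.78 and that of Plac8 -1.95, where all cells gave 1.74 and 2.74. Cd200, in 6 diabetic cells, and Hist1h1c, in 7, stood at 25.4 against 103 CPM each, and Cd200 at 50.4 against 18.8 CPM within cells scored as male. Gm10076 stood at 218 against 685 CPM, but also at 143 against 478 CPM in all cells other than the regulatory T cells.

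**Figure D3:**
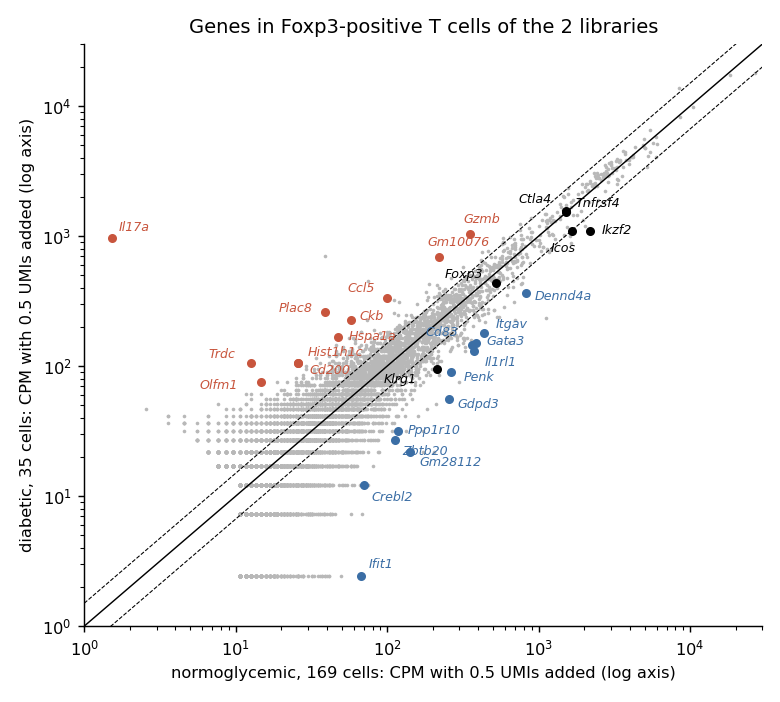
Each gene measured in Foxp3-positive T cells, by its level in the normoglycemic (horizontal) and diabetic (vertical) library in CPM with 0.5 UMIs added, both axes logarithmic. The solid line marks equal levels and dashed lines 1.5-fold; named genes ranked as higher are red, as lower blue, and reference genes black. Gzmb lies above the dashed lines at 353 and 1032 CPM, Il1rl1, Gata3 and Penk lie below, Ctla4 and Tnfrsf4 lie on the solid line, and Il17a at the left edge rests on 2 diabetic cells.

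Some signalling genes downstream of the T cell receptor were lower in the diabetic cells. Dusp1, a phosphatase that ends MAP kinase signals, stood at 697 against 225 CPM (0.323, 0.234 to 0.435), and Fos, a subunit of AP-1, at 298 against 73.4 CPM (0.246, 0.136 to 0.412). Nr4a3, an orphan nuclear receptor induced by receptor signals, stood at 546 against 235 CPM (0.430, 0.313 to 0.578), and Rel, the NF-kappaB subunit needed for regulatory T cell development, at 684 against 308 CPM (0.450, 0.342 to 0.584). The ratios of Dusp1, Fos, Nr4a3 and Rel in Foxp3-negative T cells were 0.803, 0.840, 0.921 and 0.940. Of the 23 measured genes of the list, 10 were at least 1.5-fold lower and 2 higher, with a median of -0.39 against -0.11 in Foxp3-negative T cells. Over all genes 20.8% were lower and 20% higher in regulatory T cells. Junb, Jund and Nfkbia, members with more UMIs, had log2 ratios of -0.29, -0.36 and -0.04. Over 10 other settings the list median ran from -0.52 to -0.18, the latter within cells scored as male. There the intervals of Dusp1, Fos, Nr4a3 and Rel lay below 1, that of Junb (1.06, 0.929 to 1.22) included 1 and that of Nfkbia (1.22, 1.03 to 1.44) lay above it. Fos, Fosb, Jun, Egr1, Ier2 and Dusp1 also stand in the list of heat shock and dissociation stress genes, whose median was 0.05. The part of dissociation in the values of these genes was not tested.

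Many interferon-induced genes were lower as well, though their sums rested on few cells. Irf1, a transcription factor induced by interferons, stood at 152 against 83.1 CPM (0.546, 0.310 to 0.904) and Gbp3, an interferon-gamma-induced GTPase, at 77.1 against 24.5 CPM (0.317, upper bound 0.773). Ifit1 went from 66 UMIs in 13 cells to 0, at least 4.57-fold lower against a floor of 3 UMIs, but 59.1% of its UMIs came from 1 normoglycemic cell. Rsad2 and Ifit3, with 40 and 27 normoglycemic UMIs, were at least 2.77-fold and 1.87-fold lower, but with 55% and 81.5% of those UMIs in 1 cell the upper bounds without it, 1.11 and 5.31, passed 1. The type I interferon list had 13 of 23 measured members lower and 2 higher, with a median of -0.64, or -0.39 with the 6 members at 0 in 1 library set at their bound. Over 10 other settings its median ran from -1.57 to -0.30, with -0.31 within cells scored as male. Its member Ifi27l2a, with 2116 and 373 UMIs, had a log2 ratio of -0.23 over all cells. Within cells scored as male the ratio of Ifi27l2a was 1.21 (1.05 to 1.38). The list's median was -0.35 in Foxp3-negative T cells and -1.57 in regulatory T cells without those of 100 or more antibody counts. The interferon-gamma list had 6 of 16 lower and none higher, with medians of -0.41 and, without those cells, -0.77. Within cells scored as male the interferon-gamma median was -0.40. Beside the counts of both lists, 20.8% of all genes were lower and 20% higher.

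**Figure D4:**
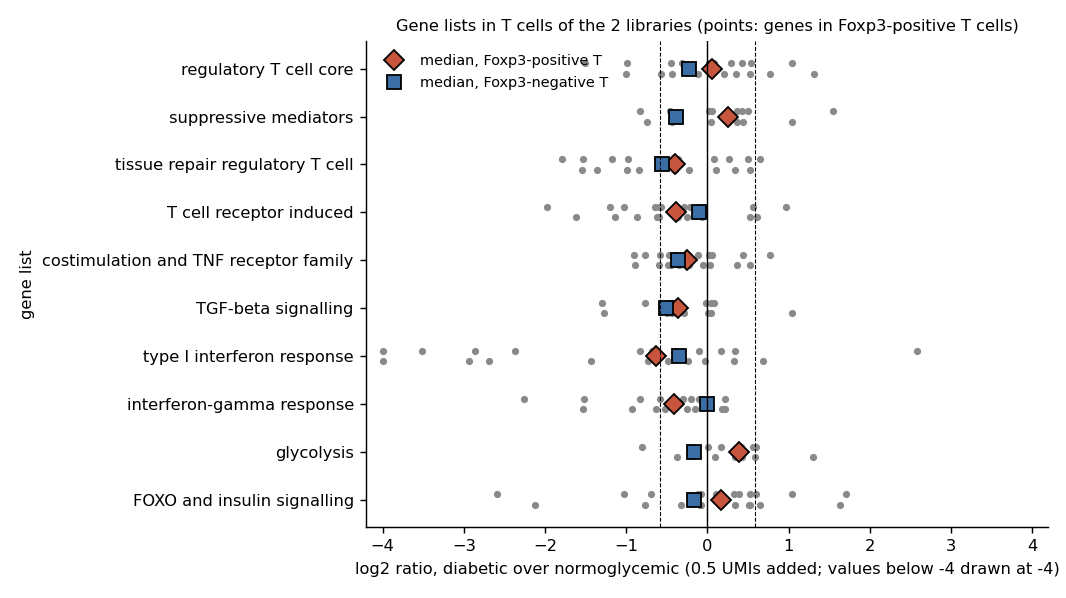
Log2 ratio of diabetic over normoglycemic levels (horizontal axis, 0.5 UMIs added) for 10 gene lists (vertical axis). Grey points are measured genes in Foxp3-positive T cells, diamonds their medians and squares the medians in Foxp3-negative T cells; dashed lines mark 1.5-fold. The diamonds of the type I interferon (-0.64) and tissue repair (-0.41) lists lie left of 0 and that of glycolysis (0.39) lies right of it.

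Of 15 measured suppressive mediators, Gzmb included, 2 were higher and 2 lower. Over all 7712 genes measured, 20% were higher and 20.8% lower, the background for each list count here. Il10 stood at 109 and 152 CPM (1.40, 0.904 to 2.10), Ebi3, a subunit of interleukin 35, at 50.7 and 63.6 CPM (1.25, 0.624 to 2.34; log2 ratio -0.83 without the cells of 100 or more antibody counts, where all cells gave 0.37), and Tgfb1 at 388 and 279 CPM (0.719, 0.535 to 0.952). Fgl2, a secreted inhibitor of dendritic cells, was lower at 674 against 401 CPM (0.595, 0.467 to 0.750). Without the cells of 100 or more antibody counts its log2 ratio was -0.41, under 1.5-fold, where all cells gave -0.74. Within cells scored as male its ratio was 0.845, with an interval (0.626 to 1.12) that included 1. The log2 ratio of Tgfb1 was -0.69 without the cells of 100 or more antibody counts, past 1.5-fold, where all cells gave -0.47. Homing genes had 7 of 22 members lower and 1 higher. Cxcr4 stood at 422 against 274 CPM (0.649, 0.482 to 0.859), whereas Ccr2 was at 465 CPM in both libraries. Without the cells of 100 or more antibody counts the log2 ratio of Cxcr4 was -0.47, under 1.5-fold, where all cells gave -0.61. Its ratio within cells scored as male was 0.882, with an interval (0.593 to 1.28) that included 1. Cell cycle genes had 5 of 20 members higher and 5 lower, with a median of -0.16, or -2.32 without the cells of 100 or more antibody counts. Mki67 was detected in 15.4% and 17.1% of cells, and 1 diabetic cell held 24 of its 29 UMIs.

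**Figure D5:**
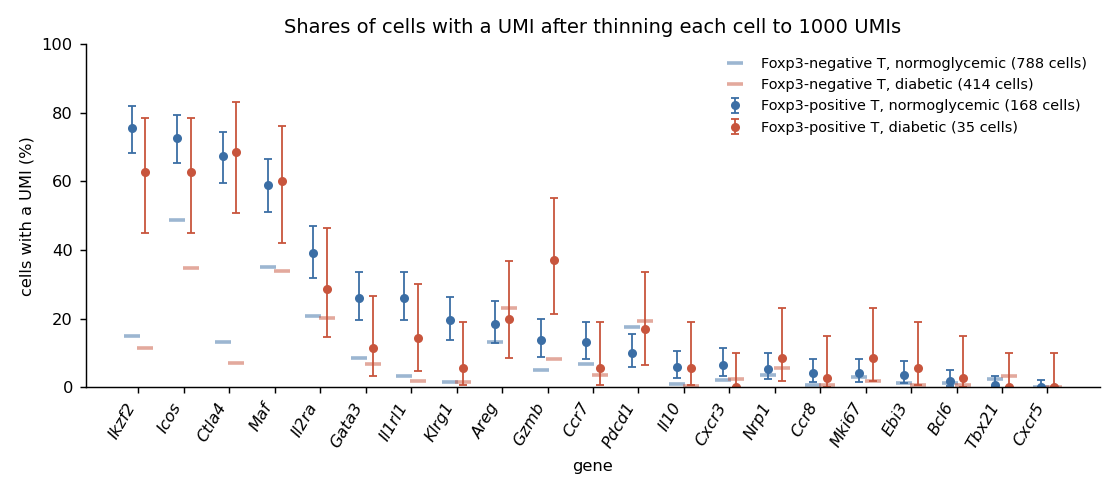
Share of cells with a UMI (vertical axis, percent) of 21 subset genes (horizontal axis) after each cell was thinned to 1000 UMIs. Points with exact 95% binomial intervals are Foxp3-positive T cells (168 normoglycemic, blue; 35 diabetic, red) and dashes the Foxp3-negative T cells of the same library. Gzmb stands at 13.7% and 37.1%, Il1rl1 at 26.2% and 14.3%, and Cxcr5 at 0 in both libraries.

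Transcripts of other lineages were present in the regulatory T cells and are given for the sums above. The 12 neutrophil markers summed to 1128 and 641 CPM (normoglycemic and diabetic), the 14 macrophage or monocyte markers to 997 and 734 CPM and the 14 dendritic cell markers to 2966 and 4558 CPM. In the normoglycemic cells 11 of 12, 13 of 14 and 14 of 14 of these markers had a UMI, and in the diabetic cells 8, 13 and 8. The dendritic cell sum was concentrated: 1 diabetic cell held 849 of 932 UMIs, while the median cell had 2 and 1. In the diabetic cells the dendritic cell markers Clec9a, Cd209a, Clec10a, Fscn1, Ccl22 and H2-Eb1 were at 0. Flt3, Itgax, Xcr1, Wdfy4, Batf3, Cd74, H2-Aa and H2-Ab1 had UMIs there. The 8 gamma-delta markers summed to 29.4 and 264 CPM and the 8 markers of type 2 innate lymphoid cells to 1148 and 245 CPM. Of the latter, Il5 and Hs3st1 were at 0 in both libraries, while Arg1, Il17rb and Cxcl2 had UMIs in both. Il13, Calca and Rnf128 had UMIs in the normoglycemic cells only. The innate lymphoid list includes Arg1 and Cxcl2 and summed to 35443 and 27216 CPM in all other cells. Its sum is therefore not particular to innate lymphoid cells. The 10 NK or cytotoxic markers summed to 227 and 88.0 CPM. Ncr1, Klrb1c, Klre1 and Klra4 were at 0 in both libraries, while Cd8b1 and Nkg7 had UMIs in both. Eomes, Prf1, Gzma and Cd8a had UMIs in the normoglycemic cells only. B or plasma cell markers summed to 156 and 142 CPM, mast cell markers to 81.2 and 48.9 CPM, epithelial markers to 60.9 and 127 CPM, fibroblast or mural markers to 7.10 and 29.3 CPM and red cell or endothelial markers to 25.4 and 29.3 CPM. Their part in the gene differences was not tested, except that the log2 ratios without the clusters led by genes of other cells and without cells with Trdc were -1.19 for Il1rl1, -1.17 for Gata3, -1.10 for Klrg1 and 1.76 for Gzmb.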

How the data were processed

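Single-cell RNA from sorted gingival leukocytes was read as 2 gene-by-cell matrices, 1 for each library, of 32285 genes and 4 antibody features. The authors deposited raw UMI counts, whole numbers that are not normalized. Per the submitters' processing notes they were made with Cell Ranger 6.0.2 on mm10, while the file headers give Cell Ranger 4.0.0; the settings are not given in the sources used here.

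Counts were summed over the gated cells of each library and divided by the summed UMIs. A gene was measured at 10 CPM in either sum and 10 UMIs in all. Ratios have exact conditional binomial 95% intervals, shares exact (Clopper-Pearson) ones and differences of shares Newcombe intervals. Where no cell had a UMI, the share said to be allowed is 3 cells over the cells counted. It lies below the exact bound, which is 2.20% for Foxp3 in diabetic B cells. With 1 library a group, no test between groups was made, and past 1.5-fold is called higher or lower. The genes that the gate used are described only. Shares of cells with a UMI are of cells as counted, without thinning, unless the text says thinned. Those of the subset genes were also taken after thinning each cell to 1000 UMIs. Doublets were not removed, and settings that leave out suspect cells stand in for a caller. T-gated cells were clustered with scanpy 1.11.5 and leidenalg 0.10.2 without the gate's genes. TMM factors came from edgeR 4.0.16 and size factors from DESeq2 1.42.0, run under R 4.3.3 on the counts as deposited, for scaling only. The ratio and interval code was tested on simulated data.

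Named genes were the markers and the gate's genes, then 15 each way against Foxp3-negative T cells (at least 50 CPM and 10 UMIs on the higher side in both libraries, ranked by the interval bound nearer 1) and 12 each way between libraries. The latter also needed 0.5 times the level of all other cells and an interval beyond 1.5-fold. From each list up to 4 genes by level and 4 by ratio could be named, and the subset genes. Sex-linked genes were not ranked. The members and the lists were chosen with earlier results of these data known. Symbols absent from the matrices (Folr4, Gbp1, Eos and Scart2) were left out, and promoters came from the RefSeq table of GRCm38.p6. Folr4 and Eos are other names of Izumo1r and Ikzf4, which the matrices hold and which were measured.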

Additional observations from a re-analysis of the deposited data

Results flagged for a closer look

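Antibody counts lie outside the gene comparisons, yet 25.7% of diabetic regulatory T cells (9 of 35, 95% interval 12.5 to 43.3) had 100 or more of them, against 0.592% of normoglycemic ones (1 of 169). The labels do not say what the 4 antibody features are, and 97.6% or more of such a diabetic cell's antibody counts came from 1 feature. In 4 of the 9 cells it was C1, in 2 C2 and in 3 C3. Of the 10 such cells of both libraries 6 lay in the cluster that held most regulatory T cells. Whether the counts bear on the gene values was not tested beyond leaving the cells out.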

How the results depend on the processing

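No paired analysis was possible because each group is 1 library. The comparison within cells scored as female was not run, since the diabetic library has 5 such regulatory T cells. Each share difference stayed below 0. The share of all cells differed by -0.864 points with at least 2 Foxp3 UMIs, -0.369 points with the gate applied after thinning and -2.22 points among cells other than neutrophil-gated ones. The share of T cells differed by -4.68 points with the gate after thinning and -16.0 points among T cells with Cd4 and no Cd8a. With genes of at least 50 CPM, 492 were higher and 482 lower in diabetic regulatory T cells, and 275 higher and 190 lower than in Foxp3-negative T cells. With no filter on low genes, 4270 were higher in the diabetic cells, and against Foxp3-negative T cells 2302 were higher and 907 lower; the number of genes tested differs by construction. TMM and median-ratio scaling gave 431 and 444 higher than in Foxp3-negative T cells. At resolution 2.0 the leading cluster held 45.6%. Of 79 alternatives for these results 64 stayed within the bounds set, of 220 for list medians 204 did, and of 108 for the detection of subset genes, by thinning, 52 did.

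Of 145 named genes, 45 changed sign in an alternative: 39 had ratios under 1.5-fold over all cells and 6 had ratios past it. Those 6 changed sign where cells were left out. Ccl5 was at -1.78 without the top cell of each library and at -2.07 within cells scored as male, where Cd200 was at -1.13. Ccna2 was at -2.71 without it, at -1.74 without the top 5% of UMIs and at -2.96 without cells of 100 or more antibody counts. Hspa1a was at -0.29 without the top 5% and at -0.70 without cells carrying genes of other lineages. Plac8 was at -3.28 without the top 5% and at -1.95 without the top cell. Tcrg-C1 was at -1.74 without the clusters led by genes of other cells and cells with Trdc. List medians moved with the cells too. With at least 2 Foxp3 UMIs they were -0.14 for suppressive mediators, -0.55 for costimulation, 0.37 for cell cycle and -0.56 for mitochondrial genes. Without the top 5% of UMIs they were 0.07 for interleukin 2 signalling, -1.59 for cell cycle and 0.07 for mitochondrial genes. Without cells of 100 or more antibody counts they were -1.57 for type I interferon, -0.77 for interferon-gamma, -0.37 for MHC class I and -2.32 for cell cycle. With every cell weighted equally mitochondrial genes were at -0.09. Within cells scored as male they were at -0.58, glycolysis at -0.03, interleukin 2 signalling at 0.16 and suppressive mediators at -0.13. Beyond the cells left out, the cause was not tested. With 35 diabetic cells, a gene needs many UMIs for a narrow interval, and spread between mice is unknown.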

Other observations

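Several genes ran one way in regulatory T cells and the other way in Foxp3-negative T cells of the same libraries, with counting intervals on opposite sides of 1; the difference between the cell types was not tested. Satb1, a chromatin organiser of T cells, stood at 90.3 against 161 CPM (1.79, 1.16 to 2.69) in normoglycemic and diabetic regulatory T cells, with a ratio of 0.783 in the others. Itga4, the integrin chain for entry into inflamed tissue, stood at 91.3 against 34.2 CPM (0.375, 0.147 to 0.804) in regulatory T cells, from 7 diabetic UMIs, with a ratio of 1.49 in the others. Nkg7, a granule protein of cytotoxic cells, stood at 171 against 73.4 CPM (0.430, 0.236 to 0.730), with a ratio of 1.22 in Foxp3-negative T cells. Zfp36, which encodes the RNA-decay factor tristetraprolin, stood at 309 against 176 CPM (0.571, 0.392 to 0.808), with a ratio of 1.14. Without the top cell of each library the intervals of these 4 genes stayed on their side of 1. Those of Gpr183 (1.26, 0.958 to 1.65) and Lgals1 (1.05, upper bound 1.17) then included 1. Within cells scored as male, the intervals of Satb1 (1.38, 0.739 to 2.46), Itga4 (0.379, 0.0747 to 1.20) and Nkg7 (0.564, 0.217 to 1.24) included 1. These genes were picked out after their values were seen, from 18 genes of this kind.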
